A study of Mus musculus with 68 samples.

Results

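MicroRNAs (miRNAs) of the lung were compared between C57BL/6J mice exposed to 1,3-butadiene (BD) and C57BL/6J mice kept in clean air. C57BL/6J is a common inbred laboratory strain, and BD is an inhaled industrial and combustion gas that the body turns into epoxides that damage DNA. The exposed group held 4 small RNA libraries of lungs from male wild-type mice given BD for 6 h per day on weekdays over 2 weeks (libraries Lung15 to Lung18, named after their columns). The clean-air group held 5 libraries of unexposed male wild-type C57BL/6J mice (Lung3, Lung4, Lung5, Lung6 and Lung106). All mice came from The Jackson Laboratory, and the labels gave neither their age nor the BD concentration. The series as a whole held 68 samples, of which 20 were small RNA libraries of C57BL/6J and CAST/EiJ lungs. The miRNAs described were the 338 of 480 table entries that were listed in every one of the 9 C57BL/6J libraries, and they stood for 312 distinct mature miRNAs. Levels are counts per 1000000 (CPM), scaled with the size factors of edgeR. The labels did not say that each library was a separate animal, so p-values measure the spread between these libraries.

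A miRNA is a short RNA cut by the enzymes Drosha and Dicer from a hairpin transcript, whose 5p arm or 3p arm is then loaded into an Argonaute protein. It pairs with messenger RNAs mainly through its seed, bases 2 to 8, and lowers their translation or stability, so that miRNAs with 1 seed can share targets. In the lung, miR-34 and miR-449 are known from multiciliated airway cells and miR-34a from the p53 response to DNA damage. The miR-200 family marks epithelium, miR-142, miR-150 and miR-155 are abundant in leukocytes, and miR-451 and miR-144 in red blood cells.

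The sequences below are of the miRNAs on which the comparison turned, grouped so that shared seeds can be seen, with the seed in capitals. They are the RefSeq mature sequences (build GRCm38.p6), 5′ to 3′, found for 297 of the 338 entries. The deposited table was made with build mm9, so the positions given are those of RefSeq alone. The first 4 share the seed of miR-34 and rose in BD lungs. The abundant miR-34c-5p of this family had no matched RefSeq sequence, so it is not printed, and it did not pass (log2 fold 0.03). miR-34a-5p lies at chr4:150068473-150068494 on the plus strand, and miR-449a-5p at chr13:113037549-113037570 and miR-449c-5p at chr13:113036008-113036028, both on the plus strand.
miR-34a-5p: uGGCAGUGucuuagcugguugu
miR-449a-5p: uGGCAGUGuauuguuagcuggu
miR-449c-5p: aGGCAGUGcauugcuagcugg
miR-34b-5p: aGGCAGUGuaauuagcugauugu
The next pair, of the miR-200 family, also rose together.
miR-200a-3p: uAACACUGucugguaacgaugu
miR-141-3p: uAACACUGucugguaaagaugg
The next 3 share a seed but moved in different directions. miR-32-5p rose, whereas miR-92a-3p and miR-92b-3p fell.
miR-32-5p: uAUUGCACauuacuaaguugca
miR-92a-3p: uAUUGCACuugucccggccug
miR-92b-3p: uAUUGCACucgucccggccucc
The last 8 are further miRNAs with high or low folds, of which the first 4 rose and the other 4 fell. miR-29b-3p and miR-497-5p share their seeds with other tested miRNAs that are not printed, and the miR-142 pair are arms of 1 hairpin. RefSeq lists miR-451, miR-142 and miR-497 as miR-451a, miR-142a and miR-497a.
miR-24-3p: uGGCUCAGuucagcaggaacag
miR-29b-3p: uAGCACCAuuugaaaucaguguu
miR-451: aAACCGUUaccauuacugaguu
miR-144-3p: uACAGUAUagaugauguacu
miR-142-3p: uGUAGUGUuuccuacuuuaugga
miR-142-5p: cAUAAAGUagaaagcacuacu
miR-423-5p: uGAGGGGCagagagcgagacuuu
miR-497-5p: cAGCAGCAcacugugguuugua

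The libraries of a group were not alike, and this touched many of the results. BD Lung15 to Lung17 held 7676679–8474182 counts and listed 445 or more entries. BD Lung18 held 3146118 counts and listed 389 entries, and the clean-air libraries held 2066588–3415561 counts and listed 357–391. On the first principal component of log2 CPM, which held 45.0% of the variance, BD Lung15 to Lung17 lay at 4.57–6.67, BD Lung18 at -0.38 and the clean-air libraries from -4.58 to -2.61. On the second (24.1%), clean-air Lung106 lay at -5.99 and BD Lung18 at -4.43. These were also the 2 libraries whose profiles were most alike across the groups, each being the best match of the other (Pearson r = 0.992 over miRNAs). The clean-air Lung3 to Lung6 and the BD Lung15 to Lung18 carry separate runs of numbers, so exposure and this split cannot be told apart in C57BL/6J except through Lung106.

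To determine which miRNAs BD changed, the 4 BD libraries were compared with the 5 clean-air libraries. The miR-34 relatives miR-449c-5p, miR-449a-5p and miR-34a-5p had the highest folds among miRNAs that reached 20 CPM on average in either group, at 2.31, 2.26 and 2.19. The leukocyte miRNA miR-150-5p was lowest, 2.44-fold lower in BD lungs, followed by miR-423-5p at 2.19-fold. Of the 338 entries 84 (24.9%) passed an adjusted p of 0.05 (edgeR quasi-likelihood test, Benjamini-Hochberg). Of these, 46 (13.6%) rose and 38 (11.2%) fell. Counted as distinct mature miRNAs, 42 rose and 33 fell. Only 14 of the 84 changed at least 2-fold, 7 in each direction, and the median log2 fold was 0.66 among the risen and -0.70 among the fallen, against -0.01 over all 338. The ranges of CPM of the groups did not overlap for 61 entries (18%), and 52 of these had passed, 31 risen and 21 fallen.

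**Figure D1:**
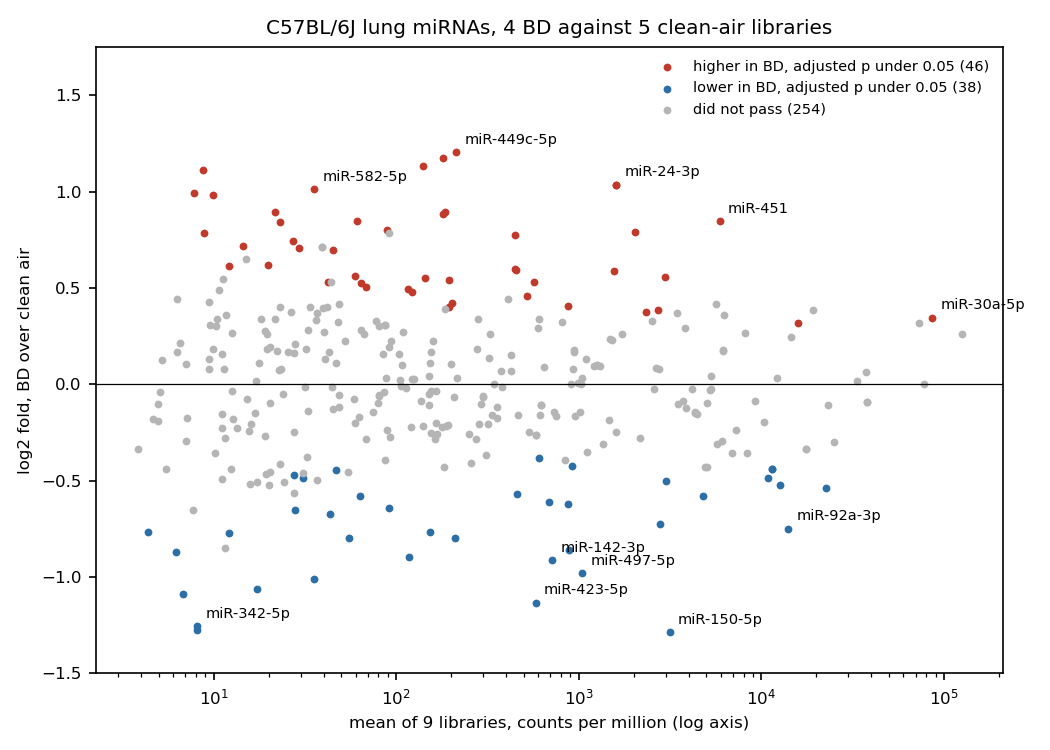
Each point is 1 of the 338 miRNA entries, with the mean CPM of the 9 C57BL/6J libraries on a log axis and the log2 fold of BD over clean air on the other. Entries that passed, 46 higher and 38 lower in BD, are coloured, and they span all levels with folds mostly under 2-fold.

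No miRNA passed when Lung18 was the only BD library (edgeR, 0 of 338, with 48 at an unadjusted p under 0.05), or when Lung106 was the only clean-air library (0 of 338, with 78 at an unadjusted p under 0.05). In each of these fits 1 arm was a lone library, assumed to vary like the others, so that 0 calls says little about how the changes rest on it. For the 46 risen miRNAs, Lung18 lay above the clean-air range in 34 cases and within it in 12. For the 38 fallen ones it lay below the range in 22 cases and within it in 16. Without Lung18, 138 miRNAs passed. With the split by title number (1 to 10 against the others) as a covariate in a fit of all 20 libraries, 63 passed, of which 31 were among the 84. Among the named miRNAs, the fit of all 20 libraries without this covariate had already ended the calls of miR-34b-5p, miR-146b-5p, miR-149-5p, miR-92b-3p, miR-351-5p and let-7d-3p. With the covariate, the risen miR-449c-5p, miR-449a-5p, miR-24-3p, miR-23a-3p, miR-32-5p, miR-200a-3p, miR-18a-5p, miR-30a-5p and let-7i-3p did not pass either. The same held for the fallen miR-150-5p, miR-142-5p, miR-155-5p, miR-128-3p, miR-92a-3p, miR-18a-3p and both arms of miR-30c-1. Their folds did not all shrink alike. The log2 fold was 0.97 with the covariate against 1.20 in the 9 libraries for miR-449c-5p, 0.34 against 0.38 for miR-23a-3p and -0.57 against -0.64 for miR-155-5p, but 0.45 against 1.17 for miR-449a-5p and 0.52 against 1.04 for miR-24-3p. The count of the 9-library fit was 55, 54 and 50 without clean-air Lung3, Lung4 or Lung6.

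miR-34a-5p, which p53 induces and which restrains the cell cycle, was measured at 179.7, 199, 271 and 151 CPM in BD Lung15 to Lung18. In clean-air Lung3, Lung4, Lung5, Lung6 and Lung106 it was at 82.7, 80.2, 114, 79.8 and 100.02 CPM. Every BD library stood above every clean-air library, and the level rose 2.19-fold (log2 fold 1.13 ± 0.18 SE, adjusted p = 0.00253). It passed whichever library was left out, and against Lung106 alone the log2 fold was 1.00.

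miR-449c-5p and miR-449a-5p come from an intron of Cdc20b and are made in cells that are building motile cilia. miR-449c-5p was at 284, 297, 327 and 329 CPM in BD lungs and at 120.1, 88.0, 85.8, 103.5 and 276 CPM in clean-air lungs. The groups did not overlap, but clean-air Lung106 lay next to the BD libraries. The fold was 2.31 (adjusted p = 0.0197), and against Lung106 alone the log2 fold was 0.16 in place of 1.20. The call ended without clean-air Lung6 (adjusted p = 0.0563). miR-449a-5p was at 178, 180.3, 395 and 289 CPM in BD lungs and at 103.4, 71.8, 94.9, 100.02 and 209 CPM in clean-air lungs. Lung106 lay within the BD range, the fold was 2.26 (adjusted p = 0.0255), and against Lung106 alone the log2 fold was 0.32. Its call ended without BD Lung17 or Lung18, or without clean-air Lung3, Lung4 or Lung6. Neither of the 2 passed with the split by number as a covariate (adjusted p = 0.108 and 0.515). Foxj1, the regulator of motile cilia, was at 33.4–60.04 CPM in BD lungs and at 36.3–70.5 CPM in clean-air lungs, and it did not pass (adjusted p = 0.973). The highest clean-air value was again that of Lung106. Whether ciliated cell number had a part in these miRNAs was not tested.

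miR-34b-5p was at 994, 963, 1199.7 and 893 CPM in BD lungs and at 772, 713, 709.7, 799 and 829.9 CPM in clean-air lungs. It rose 1.32-fold without overlap (adjusted p = 0.0261), but the call ended without any 1 of BD Lung15 and Lung17 and clean-air Lung3, Lung4, Lung5 and Lung6, and with all 20 libraries in the fit (adjusted p = 0.232). miR-34b-3p, from the other arm, was at 201 ± 32.7 CPM in BD lungs and at 210.3 ± 21.7 CPM in clean-air lungs (SD, n = 4 and 5). miR-34c-5p, the most abundant of the family, averaged 12343 ± 2503 CPM in BD lungs and 12062 ± 2098 CPM in clean-air lungs (SD, n = 4 and 5), with a log2 fold of 0.03 ± 0.16 SE (adjusted p = 0.887). So within 1 shared seed the less abundant members passed and the abundant miR-34c-5p did not. Of 14 tested entries of the list of DNA damage and p53-linked miRNAs, 2 rose (miR-34a-5p and miR-34b-5p) and 1 fell (miR-125b-1-3p, 1.59-fold). Their median log2 fold was -0.05. Over all entries 13.6% rose and 11.2% fell, so the risen count of this list was near the share of all entries.

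**Figure D2:**
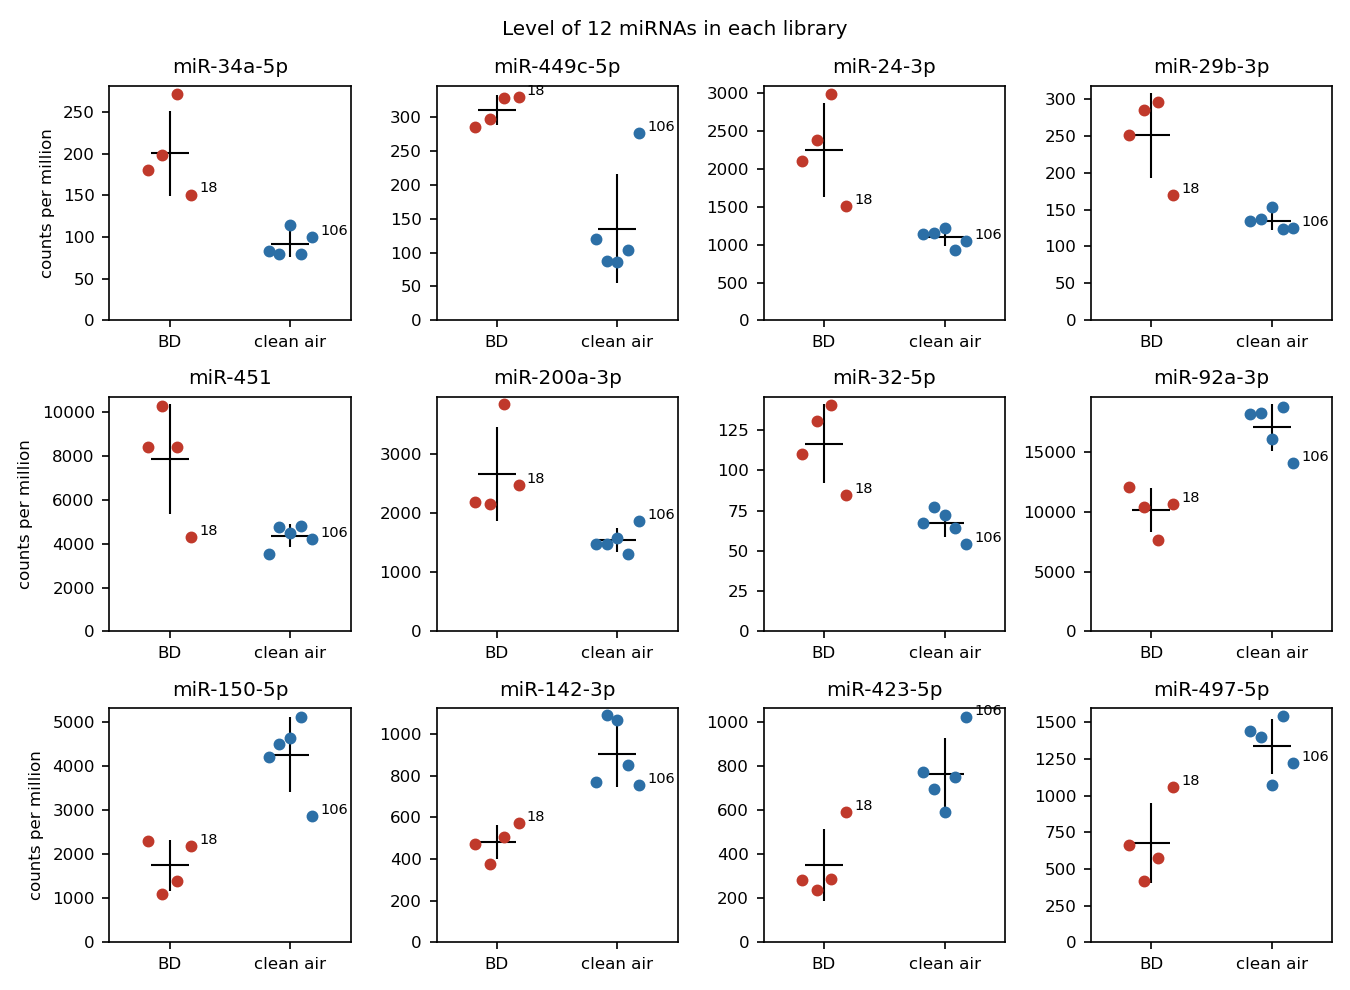
Levels in CPM of 12 miRNAs in each library, BD at the left and clean air at the right of each panel. Points are libraries, the bar and line give the mean ± SD (n = 4 and 5), and BD Lung18 and clean-air Lung106 are marked. Lung18 is the BD library nearest to clean air for miR-34a-5p, miR-24-3p, miR-29b-3p, miR-451, miR-32-5p, miR-142-3p, miR-423-5p and miR-497-5p. Lung106 is the clean-air library nearest to BD for miR-449c-5p, miR-200a-3p, miR-92a-3p, miR-150-5p and miR-142-3p.

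Further risen miRNAs belonged to several families. miR-24-3p, made from 2 loci that share its reads, was at 2109, 2388, 2991 and 1510.0 CPM in BD lungs and at 1135, 1152, 1215, 929 and 1052 CPM in clean-air lungs. The groups did not overlap, Lung18 was the lowest BD library, and the fold was 2.05 (adjusted p = 0.00253). Of the 10 tested entries of the miR-23, miR-24 and miR-27 clusters, 3 rose and 1 fell, against 13.6% and 11.2% of all entries. Their median log2 fold was 0.26. Both loci of miR-24-3p and miR-23a-3p (1.30-fold, adjusted p = 0.0428) rose. miR-27b-5p fell (log2 fold -0.58), at 49.8 ± 12.05 CPM in BD lungs and 74.1 ± 10.3 CPM in clean-air lungs (SD, n = 4 and 5). The call of miR-23a-3p ended without any 1 of 7 libraries and that of miR-27b-5p without any 1 of 6. Without Lung18 the cluster list had 6 risen and 1 fallen, where 138 of all 338 entries passed.

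The miR-29 family, which targets collagen and other matrix genes, rose in 4 of 7 tested entries, against 13.6% of all entries, and fell in none, at a median log2 fold of 0.59. The 4 hold miR-29b-3p at both of its loci, and the 7 entries are 6 distinct miRNAs. miR-29b-3p, read from its locus 2, was at 251, 285, 296 and 169 CPM in BD lungs and at 134, 137, 154, 124 and 125 CPM in clean-air lungs. The groups did not overlap, and the level rose 1.86-fold (adjusted p = 0.0026). miR-29c-3p was at 1908 ± 453 CPM in BD lungs and 1269 ± 80.7 CPM in clean-air lungs (SD, n = 4 and 5), a 1.504-fold rise (adjusted p = 0.0128). miR-29a-3p, the most abundant, averaged 8993 ± 928 CPM in BD lungs and 7487 ± 315 CPM in clean-air lungs, and did not pass (1.20-fold, adjusted p = 0.0952). Here too the most abundant member had the smallest fold of the 3 with this seed.

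In the miR-200 family, which holds epithelial identity by repressing Zeb1 and Zeb2, 3 of 8 tested entries rose, against 13.6% of all entries, and none fell, at a median log2 fold of 0.17. In RNA-seq Sftpc, of alveolar type 2 cells, rose 1.35-fold, at 11176 ± 1333 CPM in BD lungs and 8287 ± 1168 CPM in clean-air lungs (SD, n = 6 and 5, adjusted p = 0.0151). Scgb1a1, of club cells, fell 1.21-fold, at 6137 ± 635 CPM in BD lungs and 7418 ± 702 CPM in clean-air lungs (SD, n = 6 and 5, adjusted p = 0.0479), though not with all 24 libraries in the fit (adjusted p = 0.334). The part of epithelial cell number in these miRNAs was not tested. miR-200a-3p was at 2191, 2154, 3833 and 2471 CPM in BD lungs and at 1471, 1483, 1583, 1307 and 1857 CPM in clean-air lungs. It rose 1.73-fold without overlap (adjusted p = 0.00639). miR-141-3p rose 1.47-fold and miR-200c-3p 1.38-fold (adjusted p = 0.0195 and 0.0217), and the call of miR-141-3p ended without clean-air Lung4 or Lung6. miR-200b-3p was at 6014 CPM in BD lungs and 7690 CPM in clean-air lungs and did not pass (log2 fold -0.35, adjusted p = 0.187). Nor did miR-200b-5p (log2 fold -0.51, adjusted p = 0.169) or miR-429-3p (log2 fold -0.03). Of the 8 log2 folds of the family, 5 were above 0. Without clean-air Lung106 the counts were 3 risen and 2 fallen, where 94 of all 338 entries passed.

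Both arms of miR-582 rose. miR-582-5p was at 54.8, 58.2, 52.0 and 31.2 CPM in BD lungs and at 23.8, 25.6, 27.5, 21.9 and 23.6 CPM in clean-air lungs, 2.02-fold higher (adjusted p = 0.0026). miR-582-3p rose 1.46-fold, and for both arms no BD library overlapped clean air. The other highest folds were those of miR-500-3p (1.86), miR-22-5p (1.80) and miR-33-5p (1.79), the last a repressor of cholesterol export made from an intron of Srebf2. For miR-22 the abundant 3p arm was at 77857 ± 8849 CPM in BD lungs and 77853 ± 8154 CPM in clean-air lungs (SD, n = 4 and 5), while the 5p arm was at 81.0 ± 11.2 and 45.2 ± 7.8 CPM. miR-30a-5p, one of the most abundant miRNAs of the table, rose 1.27-fold, to 97724 ± 8567 CPM in BD lungs against 76901 ± 5211 CPM in clean-air lungs (SD, n = 4 and 5, adjusted p = 0.0234), though not without BD Lung15 or clean-air Lung4 or Lung6.

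The erythroid miR-451 and miR-144 are made from 1 transcript and miR-451 is cut by Argonaute 2 without Dicer. miR-451 was at 8404, 10265, 8391 and 4326 CPM in BD lungs and at 3526, 4765, 4472, 4829 and 4227 CPM in clean-air lungs. BD Lung18 lay inside the clean-air range, and the 1.80-fold rise (adjusted p = 0.00953) was that of Lung15 to Lung17, since Lung18 alone gave a log2 fold of -0.01. miR-144-3p rose 1.71-fold without overlap, at 584 ± 119.9 CPM in BD lungs and 341 ± 43.6 CPM in clean-air lungs (SD, n = 4 and 5, adjusted p = 0.00336). Of the 5 erythroid entries these 2 rose, against 13.6% of all entries, and none fell. miR-486-5p did not pass (1.13-fold, adjusted p = 0.371). Nor did miR-144-5p, the other arm of miR-144 (log2 fold 0.07, adjusted p = 0.759), or miR-486-3p (log2 fold -0.52, adjusted p = 0.179). Without BD Lung18, 2 erythroid entries rose and 1 fell, where 138 of all 338 entries passed. In RNA-seq of the same groups the summed erythroid markers Hba-a1, Hbb-b1 and Alas2 were at 6369–8349 CPM in BD lungs and 4550–6848 CPM in clean-air lungs. Of these 3 genes 2 rose, against 6.13% of all tested genes. With all 24 RNA-seq libraries in the fit, neither passed (adjusted p = 0.239 and 0.135). In bulk tissue, more or fewer cells of a type and more or less RNA per cell cannot be told apart, and the part of blood in these miRNAs was not tested.

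Of the inflammation and oxidative stress list, 3 of 11 entries rose (miR-144-3p, miR-21-5p and miR-146b-5p) and 1 fell (miR-155-5p), at a median log2 fold of 0.07. Over all entries 13.6% rose and 11.2% fell. Without BD Lung18, 5 rose and 2 fell, where 138 of all 338 entries passed. miR-21-5p, induced in injured tissue, was at 15536, 17136, 18378 and 20525 CPM in BD lungs and at 14458, 13491, 14324, 14489.8 and 15082 CPM in clean-air lungs. The groups did not overlap and the fold was 1.25 (adjusted p = 0.046), but the call ended without clean-air Lung3, Lung4, Lung5 or Lung6. miR-146b-5p, a brake on Toll-like receptor signalling, was at 443, 714, 814 and 763 CPM in BD lungs and at 459, 391, 559, 435 and 519 CPM in clean-air lungs, 1.45-fold higher (adjusted p = 0.0379). BD Lung15 overlapped clean air, and the call ended without any 1 of 5 libraries. miR-146a-5p, with the same seed, was at 796, 941, 1423 and 1655 CPM in BD lungs and at 1538, 1403, 1552, 1379 and 1597 CPM in clean-air lungs. The BD libraries spread on both sides of clean air, and it did not pass (log2 fold -0.31 ± 0.19 SE, adjusted p = 0.249).

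Several leukocyte miRNAs were lower in BD lungs. Of 14 tested entries (12 distinct miRNAs), 5 fell, against 11.2% of all entries, and none rose, at a median log2 fold of -0.36 against -0.01 over all entries. The 5 hold both arms of miR-142 and 1 of the 2 loci of miR-181b-5p, and 9 entries did not pass. Without BD Lung18, 9 fell and 1 rose, in a fit in which 138 of all 338 entries passed. miR-150-5p, abundant in mature lymphocytes, was at 2299, 1097, 1404 and 2191 CPM in BD lungs and at 4202, 4505, 4631, 5122 and 2867 CPM in clean-air lungs. No libraries overlapped, Lung106 was the lowest clean-air library, and the level fell 2.44-fold (log2 fold -1.29 ± 0.23 SE, adjusted p = 0.0026). With the split by number as a covariate it did not pass (adjusted p = 0.0597), and neither did miR-142-5p (adjusted p = 0.147).

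miR-142, which is made across the blood cell lineages, fell in both arms. miR-142-3p was at 474, 375, 504 and 574 CPM in BD lungs and at 771, 1089, 1068, 849.6 and 753 CPM in clean-air lungs, 1.88-fold lower (adjusted p = 0.0026). miR-142-5p was at 2046, 1733, 2212 and 2194 CPM in BD lungs and at 4267, 3586, 3472, 3214 and 2351 CPM in clean-air lungs, 1.65-fold lower (adjusted p = 0.00639). In neither arm did the groups overlap. Against Lung106 alone the log2 fold of the 5p arm was -0.20 in place of -0.72.

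The rare miR-342-5p fell 2.39-fold, at 4.54 ± 0.637 CPM in BD lungs and 11.01 ± 1.66 CPM in clean-air lungs (SD, n = 4 and 5, adjusted p = 0.00253), and Lung18 alone gave a log2 fold of -1.33. Its abundant partner miR-342-3p did not pass (log2 fold -0.37, adjusted p = 0.112). The fifth was miR-181b-5p at its locus 1 (1.34-fold, adjusted p = 0.046), while the entry of locus 2, with the same sequence, did not pass (adjusted p = 0.091). miR-155-5p, of the inflammation list, which activated lymphocytes and macrophages make, was at 52.9, 57.8, 70.0 and 97.7 CPM in BD lungs and at 100.4, 99.6, 138, 85.4 and 118 CPM in clean-air lungs. It fell 1.56-fold (adjusted p = 0.0261), Lung18 lay within the clean-air range, and the call ended without any 1 of 5 libraries. The myeloid miR-223-3p was at 176 ± 32.9 CPM in BD lungs and 204 ± 27.9 CPM in clean-air lungs (SD, n = 4 and 5) and did not pass (adjusted p = 0.339). In RNA-seq Ptprc, a gene expressed across leukocytes, was at 192 ± 45.4 CPM in BD lungs and 322 ± 30.8 CPM in clean-air lungs (SD, n = 6 and 5). It fell 1.67-fold without overlap (adjusted p = 0.00454), and Lung106 was again the lowest clean-air library. Cd3e, of T cells, was at 1.87 ± 0.565 CPM in BD lungs and 4.51 ± 1.67 CPM in clean-air lungs (SD, n = 6 and 5). It fell 2.34-fold (adjusted p = 0.00693) with Lung106 inside the BD range, but not with all 24 libraries in the fit (adjusted p = 0.0643). The part of leukocyte number in the miRNA levels was not tested.

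**Figure D3:**
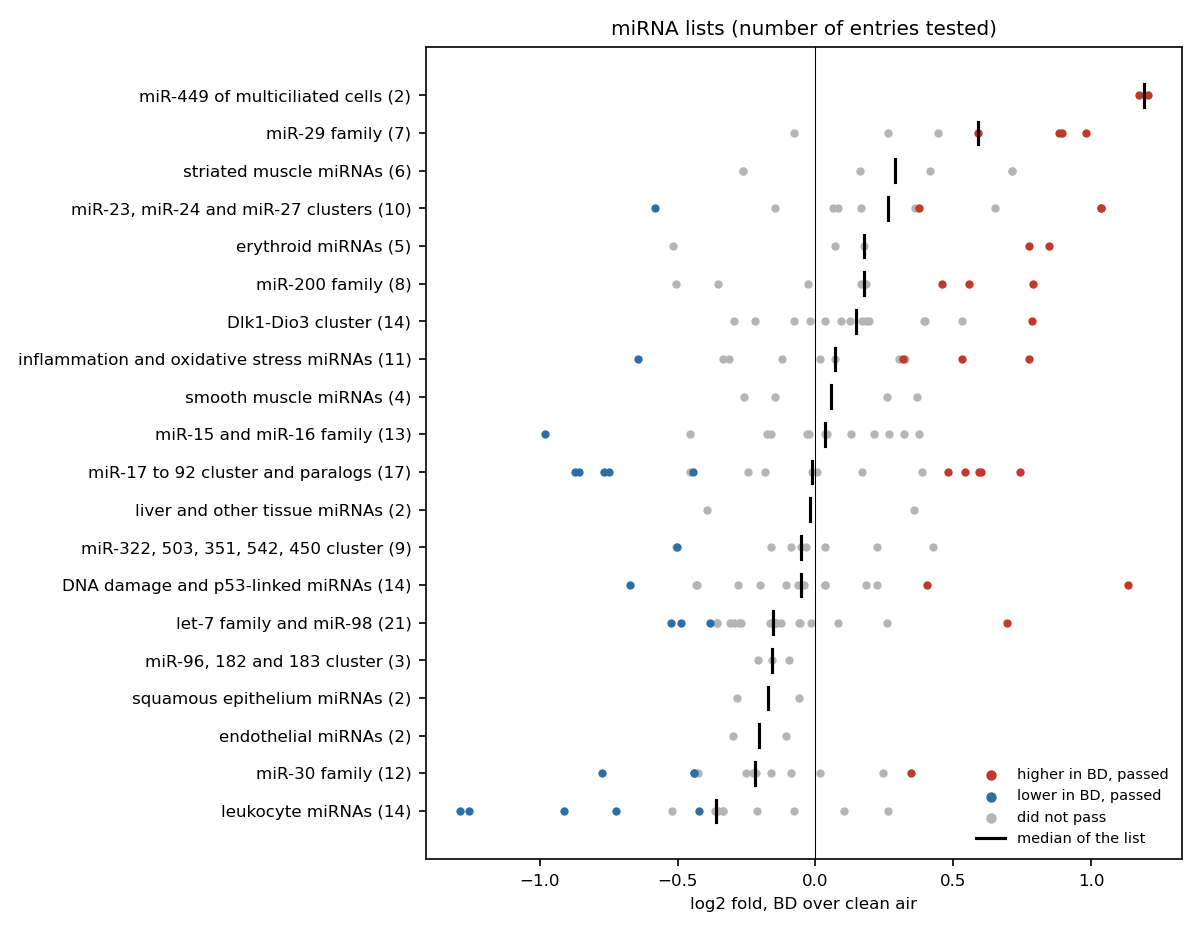
Log2 fold of BD over clean air for each tested entry of 20 miRNA lists, with the number of entries in brackets and the median as a black line, ordered by median. Coloured points passed. The miR-449 and miR-29 lists lie at the top (medians 1.19 and 0.59) and the leukocyte list at the bottom (-0.36).

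The other fallen miRNAs were mostly not of leukocyte lists. miR-423-5p was at 282, 237, 288 and 592 CPM in BD lungs and at 772, 698, 589, 748 and 1021 CPM in clean-air lungs. It fell 2.19-fold (adjusted p = 0.00953), with Lung18 just inside the clean-air range, and miR-423-3p fell 1.53-fold (adjusted p = 0.0173). miR-497-5p, a member of the miR-15 and miR-16 family that restrains the cell cycle, was at 661, 419, 576 and 1056 CPM in BD lungs and at 1439, 1402, 1073, 1541 and 1222 CPM in clean-air lungs. It fell 1.97-fold (adjusted p = 0.00836) and Lung18 was the highest BD library, just under the lowest clean-air library. It was the only called member among 13 tested entries of that family, which had a median log2 fold of 0.04, and its cluster partner miR-195-5p was at 1155 ± 117 CPM in BD lungs and 1055 ± 49.9 CPM in clean-air lungs (SD, n = 4 and 5).

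miR-128-3p, at its locus 1, fell 1.86-fold (79.4 ± 18.2 CPM in BD lungs, 147 ± 25.3 CPM in clean-air lungs), miR-149-5p 1.74-fold (150.04 ± 27.4 and 260.1 ± 38.2 CPM) and miR-676-3p 1.70-fold (110.4 ± 32.8 and 187 ± 12.3 CPM), each without overlap (SD, n = 4 and 5). The call of miR-149-5p ended with all 20 libraries in the fit (adjusted p = 0.183). The less abundant miR-1964-3p and miR-3096b-5p fell 2.09-fold and 2.02-fold, with Lung18 within the clean-air range in both.

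The miR-17 to 92 cluster and its paralogs, known as drivers of proliferation, moved in both directions. Of 17 entries (15 distinct miRNAs), 5 rose and 5 fell, against 13.6% and 11.2% of all entries. Their median log2 fold was -0.01. miR-92a-3p, read from its locus 1, was at 12025, 10383, 7593 and 10599 CPM in BD lungs and at 18162, 18249, 16042, 18724 and 14097 CPM in clean-air lungs, 1.68-fold lower without overlap (adjusted p = 0.00325). miR-18a-5p, cut from the same transcript, was at 37.7, 39.4, 40.1 and 22.3 CPM in BD lungs and at 17.7, 19.8, 28.5, 18.1 and 21.2 CPM in clean-air lungs, 1.67-fold higher (adjusted p = 0.0181), with Lung18 inside the clean-air range. This call ended without clean-air Lung3 or Lung6. miR-19b-3p from that transcript rose 1.52-fold (adjusted p = 0.0102).

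In the let-7 family, 3 of 21 entries fell (both loci of let-7f-5p and let-7d-3p), 1 rose (let-7i-3p, 1.62-fold) and the median log2 fold was -0.15. Over all entries 11.2% fell and 13.6% rose, so the fallen share was close to that of all entries and the risen share was lower. The 21 entries are 17 distinct miRNAs, and 3 of the 21 log2 folds were above 0. In the miR-30 family, 3 of 12 fell (both loci of miR-30c-5p and miR-30c-1-3p) and 1 rose (miR-30a-5p), at a median of -0.22. These 12 entries are 11 distinct miRNAs, set against the same 11.2% fallen and 13.6% risen over all entries. The miR-322 cluster had 1 of 9 fallen (miR-351-5p, 1.41-fold), and the imprinted Dlk1-Dio3 cluster 1 of 14 risen (miR-136-3p, 1.72-fold). Among these calls, with 1 locus of each tested, only that of let-7i-3p held whichever library was left out. None of the 4 smooth muscle, 6 striated muscle, 2 squamous, 2 endothelial, 3 miR-96 cluster and 2 liver and other tissue entries passed, and their median log2 folds lay between -0.20 and 0.29. Without Lung18, 2 smooth muscle and 1 striated muscle entries rose and 1 of the liver and other tissue list fell. Without Lung106, 1 endothelial entry fell. Of all 338 entries, 138 passed without Lung18 and 94 without Lung106. miR-143-3p of smooth muscle, the most abundant entry, averaged 137664 ± 12724 CPM in BD lungs and 115047 ± 14417 CPM in clean-air lungs (SD, n = 4 and 5, adjusted p = 0.115). Endothelial miR-126-3p averaged 22327 ± 1764 CPM in BD lungs and 24060.2 ± 3244 CPM in clean-air lungs (adjusted p = 0.547).

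The squamous miR-205-5p differed widely between libraries of 1 group. It was at 59.5, 42.5, 317 and 164 CPM in BD lungs and at 104.1, 125.5, 48.7, 112 and 500.1 CPM in clean-air lungs, with the highest value of each group in Lung17 and Lung106. In RNA-seq the summed squamous keratins Krt5, Krt13, Krt4 and Krt15 were at 784 CPM in BD Lung17 and at 1575 CPM in clean-air Lung106. They were at 3.73–9.16 CPM in BD Lung15, Lung16 and Lung18 and at 2.79–16.2 CPM in clean-air Lung3 to Lung6. BD Lung13 and Lung14, which had RNA-seq but no small RNA library, were at 1122 and 90.6 CPM. miR-203-3p was at 456 CPM in Lung106, against 271–328 CPM in BD lungs and 261–275 CPM in the other clean-air lungs. Neither passed (adjusted p = 0.8293 and 0.8216).

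miRNAs that share a seed did not always move together. The 273 distinct tested sequences matched in RefSeq held 208 seeds, of which 37 were shared by at least 2 sequences. In 8 of these families at least 2 members passed, all risen in 4 families, all fallen in 1 and in both directions in 3. Over all 338 entries 24.9% passed. The seed of miR-34a-5p was the only one with 4 called members. This count leaves out the abundant miR-34c-5p, which had no matched RefSeq sequence and did not pass (log2 fold 0.03, adjusted p = 0.887). The family of miR-32-5p was split. miR-32-5p was at 110.3, 130.3, 141 and 84.7 CPM in BD lungs and at 67.4, 77.0, 71.9, 64.3 and 54.3 CPM in clean-air lungs, 1.74-fold higher without overlap (adjusted p = 0.00363). miR-92b-3p was at 3620.1, 3892, 3251 and 4343 CPM in BD lungs and at 6388, 4862, 5125, 6259 and 5561 CPM in clean-air lungs, 1.49-fold lower without overlap (adjusted p = 0.00739), but it did not pass with all 20 libraries in the fit (adjusted p = 0.0766). miR-25-3p, the fourth member, did not pass (log2 fold -0.18). Within the miR-30 seed miR-30a-5p rose and miR-30c-5p fell (1.36-fold), and within the miR-181 seed miR-181c-5p rose (1.31-fold) and miR-181b-5p fell at its locus 1 alone, so that without the locus 1 entry this family would not count as called in both directions.

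The arms of a hairpin could be compared wherever both were tested. Both arms passed in 7 hairpins, both fell in 3 (miR-142, miR-423 and miR-30c-1), both rose in 2 (miR-582 and miR-29c), and in 2 the 5p arm rose while the 3p arm fell. Those 2 were miR-106b and miR-18a, paralogs with related seeds, whose arms are as follows.
miR-106b-5p: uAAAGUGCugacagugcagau
miR-106b-3p: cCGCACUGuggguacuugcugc
miR-18a-5p: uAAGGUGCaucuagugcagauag
miR-18a-3p: aCUGCCCUaagugcuccuucug
miR-106b-5p was at 240.1, 218, 295 and 192 CPM in BD lungs and at 168, 154, 162, 156 and 172 CPM in clean-air lungs, and miR-106b-3p at 42.7, 33.4, 35.4 and 45.1 CPM in BD lungs and at 47.3, 57.2, 54.6, 54.4 and 51.9 CPM in clean-air lungs. Neither arm overlapped between the groups, with a 1.46-fold rise and a 1.36-fold fall (adjusted p = 0.0129 and 0.0312), but the call of the 3p arm ended with the G and C content of the libraries taken into account (adjusted p = 0.0818). The fallen miR-18a-3p was rare, at 4.46 ± 1.8 CPM in BD lungs and 7.63 ± 2.28 CPM in clean-air lungs (SD, n = 4 and 5, adjusted p = 0.0384), and its call ended without any 1 of 5 libraries. In a further 34 hairpins 1 arm passed and in 63 neither did.

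The base composition of the mature sequence moved with the fold. Risen miRNAs had a median of 42.9% G and C, fallen ones 53.4% and those that did not pass 47.6% (41, 30 and 202 distinct miRNAs with a RefSeq sequence). Across these 273 miRNAs, which share the same 9 libraries, the log2 fold was weakly related to the G and C percent (Pearson r = -0.21, Spearman rho = -0.23). Among the 87 miRNAs with at most 40.91% G and C 19 rose and 4 fell, and among the 74 with at least 54.55% 8 rose and 15 fell. With a smooth dependence on G and C taken out of every library, 79 of 297 matched entries passed (26.6%), 70 of them among the 80 called ones that could be tested this way. Among the named miRNAs, the calls of miR-21-5p, miR-34b-5p, miR-146b-5p, miR-351-5p, miR-25-5p, miR-106b-3p and let-7d-3p ended (adjusted p 0.0548–0.267). Whether base composition of the libraries or the exposure set this relation was not tested.

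**Figure D4:**
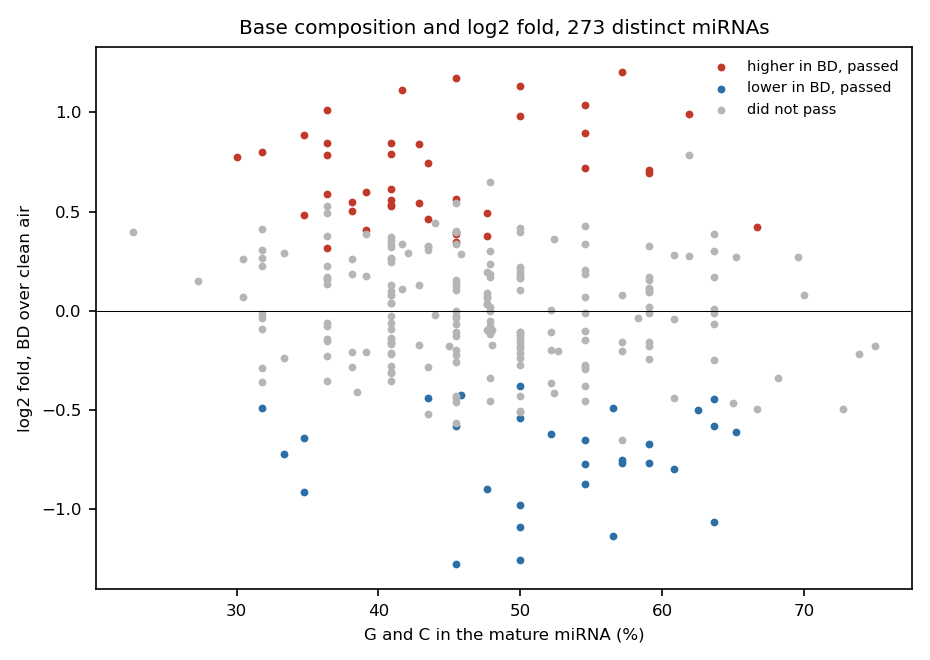
Percent of G and C in the mature miRNA and log2 fold of BD over clean air for 273 distinct miRNAs with a RefSeq sequence. Red points rose and blue points fell with an adjusted p under 0.05. Risen miRNAs lie more to the left (median 42.9%) and fallen ones more to the right (53.4%), with wide overlap.

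To see whether genes that make or carry miRNAs changed as well, RNA-seq counts of 6 BD and 5 clean-air C57BL/6J libraries were compared. Of 16697 tested genes 2434 passed (14.6%), 1024 higher (6.13%) and 1410 lower (8.44%) in BD lungs. Of 34 tested genes of miRNA processing and action 2 rose and 5 fell, with a median log2 fold of -0.01 against 0.00 over all genes. The 3 core enzymes did not pass. Dicer1 was at 161 ± 10.1 CPM in BD lungs and 162 ± 10.99 CPM in clean-air lungs, Drosha at 54.3 ± 8.72 and 62.8 ± 6.09 CPM and Ago2 at 105.1 ± 11.3 and 121 ± 14.1 CPM (SD, n = 6 and 5, adjusted p = 0.96, 0.23 and 0.141). Zfp36l1, an RNA decay factor, fell most, to 59.7 ± 7.63 CPM in BD lungs against 109 ± 18.03 CPM in clean-air lungs (SD, n = 6 and 5), 1.83-fold (adjusted p = 0.000467). Zcchc11, a terminal uridylyl transferase of miRNAs and their precursors, fell 1.35-fold (adjusted p = 0.00436), Khsrp, which aids the processing of some precursors, 1.35-fold, Ago1 1.25-fold and the poly(A) polymerase Papd4 1.21-fold. Adarb1, an RNA editing enzyme, rose 1.24-fold and Ago3 1.14-fold. Zfp36l1 passed in all 14 alternatives run, Zcchc11 in 13, Adarb1 in 12, Ago1 in 7, Khsrp in 6, Papd4 in 5 and Ago3 in 1. With all 24 RNA-seq libraries in the fit 3 of the 7 passed. The count was 11 without clean-air Lung106, 2 without Lung4, and 3 without clean-air Lung3 or Lung5 or BD Lung15, Lung16 or Lung17.

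Host genes did not follow their intronic miRNAs in a uniform way. The called entries with a listed host numbered 15 and had 10 hosts, of which 1 rose, 2 fell and 7 did not pass. Over all tested genes 6.13% rose and 8.44% fell. Evl, host of miR-342, fell with it, at 31.3 ± 5.8 CPM in BD lungs and 43.2 ± 4.72 CPM in clean-air lungs (SD, n = 6 and 5, log2 fold -0.46, adjusted p = 0.0216). Srebf2, host of miR-33, was lower in BD lungs (log2 fold -0.49, adjusted p = 0.0155) while miR-33-5p was higher. Mcm7, a replication gene that hosts miR-106b, miR-93 and miR-25, rose (log2 fold 0.27, adjusted p = 0.00763), as did miR-106b-5p, whereas miR-106b-3p and miR-25-5p fell. Cdc20b, host of miR-449, was at 0.877 ± 0.203 CPM in BD lungs and 0.721 ± 0.136 CPM in clean-air lungs and did not pass (log2 fold 0.24, adjusted p = 0.545).

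The same exposure was set against that of CAST/EiJ, a wild-derived strain, with 4 BD and 7 clean-air small RNA libraries. On a scale from 0 at the CAST/EiJ mean to 1 at the C57BL/6J mean of log2 CPM, the library labelled CAST/EiJ BD Lung8 lay at 0.841. The other CAST/EiJ libraries lay between -0.06 and 0.175 and the C57BL/6J libraries between 0.698 and 1.18, so Lung8 goes against its label. Of 320 miRNAs listed in all 20 libraries, 13 (4.06%) passed for BD in CAST/EiJ, and 9 (2.81%) without Lung8. The ratio of the C57BL/6J response to the CAST/EiJ response differed from 1 for 89 of 320 miRNAs (27.8%), with and without Lung8. This fit held no term for the split by title number. All C57BL/6J BD libraries had numbers above 10 and all CAST/EiJ BD libraries numbers up to 10. The strain difference and the split therefore cannot be fully told apart. Of 52 named miRNAs that could be tested, 37 differed, but most of these were named because they had changed in C57BL/6J, so this share is no independent measure. Without Lung8 it was 35, with miR-449a-5p, let-7i-3p and miR-136-3p lost (adjusted p 0.0576–0.0974) and miR-34b-5p gained (adjusted p = 0.00429). Without Lung8 miR-34b-5p fell under BD in CAST/EiJ (log2 fold -0.83, adjusted p = 0.0287), where with it the log2 fold was -0.34. For miR-34a-5p the log2 fold was 1.36 ± 0.28 SE higher in C57BL/6J than in CAST/EiJ (adjusted p = 0.00228), where the BD response was -0.20. For miR-150-5p it was -1.71 ± 0.35 SE, with a CAST/EiJ response of 0.44, which was 0.21 without Lung8 (adjusted p = 0.591). miR-150-5p was at 1762 CPM under BD and 4241 CPM in clean air in C57BL/6J, and at 2123 CPM under BD (1806 CPM without Lung8) and 1561 CPM in clean air in CAST/EiJ. For miR-21-5p the strain difference was 0.14 ± 0.11 SE (adjusted p = 0.364) and for miR-449c-5p 1.03 ± 0.49 SE (adjusted p = 0.122), and neither passed. miR-449c-5p was at 315 CPM in C57BL/6J under BD and at 134 CPM in clean air, against 409 and 356 CPM in CAST/EiJ.

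**Figure D5:**
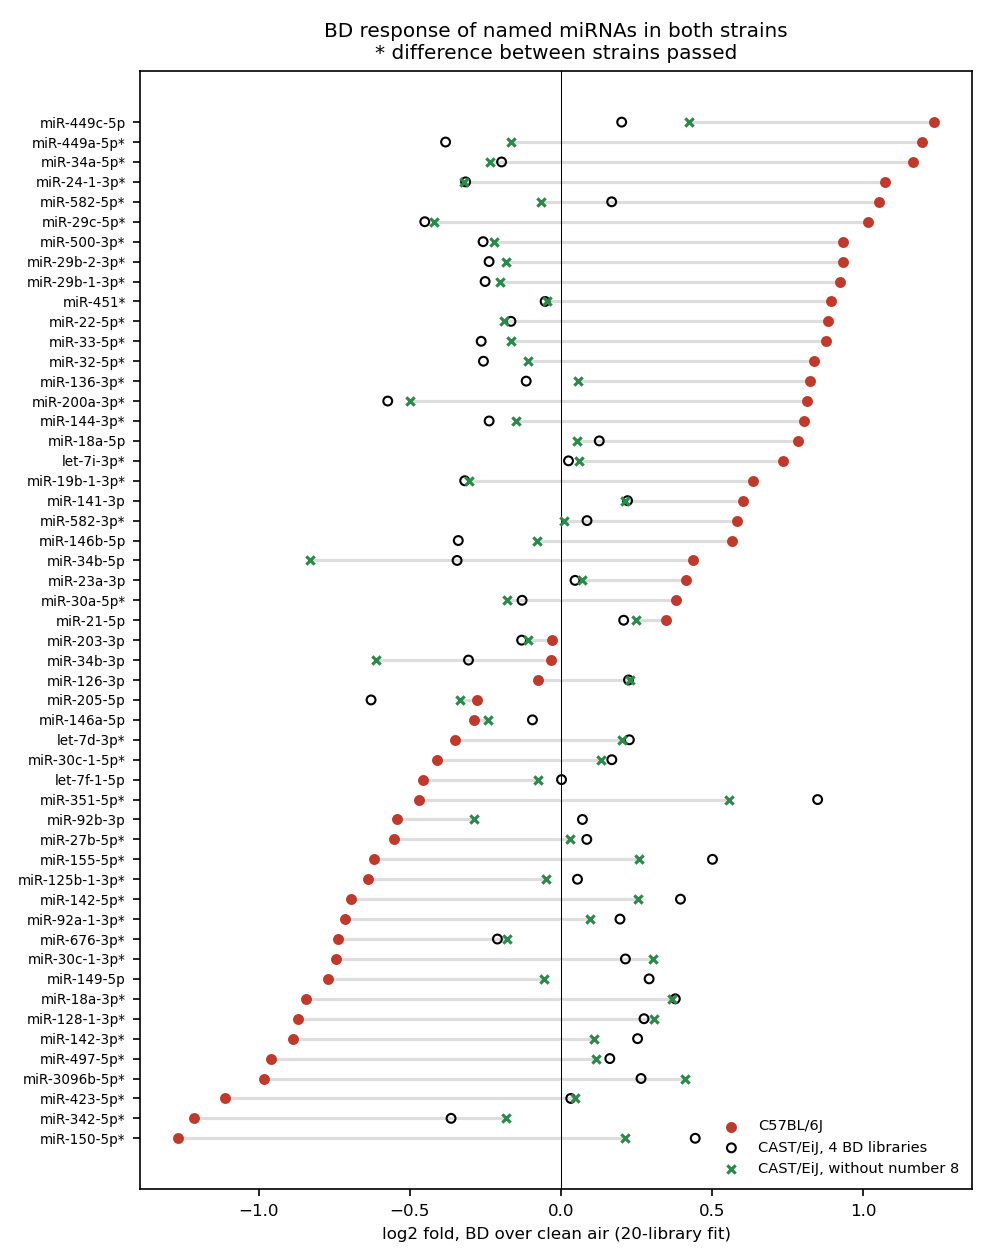
Log2 fold of BD over clean air for 52 named miRNAs from the fit of all 20 libraries. Red points are C57BL/6J, open circles CAST/EiJ and green crosses CAST/EiJ without BD Lung8, and an asterisk marks the 37 miRNAs whose response differed between the strains. The open circles run from -0.63 (miR-205-5p) to 0.85 (miR-351-5p), with miR-34a-5p at -0.20. Some lie on the other side of 0 from C57BL/6J, such as miR-150-5p at 0.44, and others on the same side, such as miR-21-5p at 0.21.

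Entries of the table outside the 338 were not tested. Of these, 19 were listed in BD Lung15 to Lung17 alone and 8 in no C57BL/6J library. The 4 entries miR-411-3p, miR-369-5p, miR-501-5p and miR-296-5p were listed in all BD libraries and in no clean-air library. The smallest listed value of the table, 10.5 counts, was worth 5.08 CPM in the shallowest clean-air library. In none of the 4 did every BD library exceed that level. The level is lower in the deeper clean-air libraries, and whether these 4 entries differed was not tested.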

How the data were processed

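Small RNA and RNA-seq libraries were made from lung RNA extracted with Qiagen RNeasy Mini, per the labels' protocols, and the submitters' processing notes name Bowtie, GSNAP and build mm9 without versions. The authors deposited 1 table of miRNA estimated counts, of which 59.6% were whole within 1e-06, and 1 table of gene counts. How reads that match several loci were divided is not given in the sources used here, so entries of 1 sequence at 2 loci are not independent.

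Estimated counts were rounded, and the 338 entries listed in all 9 C57BL/6J libraries were tested with edgeR 4.0.16 (R 4.3.3, TMM size factors, quasi-likelihood F test, two-sided, Benjamini-Hochberg adjustment over all entries tested, threshold 0.05). Genes were tested likewise after edgeR's filter on low counts. Strains were compared by an interaction term over all 20 small RNA libraries. Alternatives used DESeq2 1.42.0, limma 3.58.1, other filters and size factors, a G and C offset, thinned counts and left-out libraries. A floor of 3 counts was worth 0.354–1.45 CPM per library and covers counting error only. On simulated data of 338 miRNAs the test recovered 50% of 1.5-fold and 96.7% of 2-fold changes, and on 16697 genes 54% and 88%. Of 47 simulated miRNA calls 3 were false, and of 148 gene calls 6 were. The simulated libraries held no split by title number and no library set apart from its group, so these rates may not hold for the real libraries.

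Named miRNAs were those that passed with a group mean of at least 20 CPM and had the 10 highest folds, the 10 lowest or the 6 smallest remaining p, up to 2 per direction of each list, and a set always named (miR-34, miR-21, miR-155, miR-146, miR-205, miR-203, miR-142, miR-126 and miR-451). miR-29a-3p, miR-29c-3p, miR-200c-3p, miR-181b-5p, miR-181c-5p, miR-195-5p, miR-22-3p, miR-223-3p, miR-342-3p, miR-423-3p, miR-486-5p, miR-143-3p, miR-25-3p and the arms of miR-106b were named after their values were seen. Named genes of miRNA processing were all called ones with Dicer1, Drosha and Ago2. The members and lists were chosen with earlier results of these data known. No 2 of the 9 libraries agreed within sampling noise (36 pairs). ATAC-seq samples were not analysed here. 1 marker gene of the leukocyte list is not reported here.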

Additional observations from a re-analysis of the deposited data

Results flagged for a closer look

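Of 114 sets of values of 1 group (4 or 5 libraries), 9 held a library far from the others, against 5.7 that chance gives at 1 in 20. In BD lungs this was Lung18 each time. It had 3146118 counts against 7676679–8474182 counts, 64.29 CPM of miR-22-5p against 84.7–87.5, 591.6 CPM of miR-423-5p against 237–288, and 22.26 CPM of miR-18a-5p against 37.7–40.1. In clean-air lungs it was Lung106 each time. It had 276.5 CPM of miR-449c-5p against 85.8–120.1, 208.5 of miR-449a-5p against 71.8–103.4, and 15.1 of miR-1964-3p against 23.2–26.0. It also had 500.1 CPM of miR-205-5p against 48.7–125.5 and 455.8 of miR-203-3p against 261–275.

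The BD response differed between the strains, by an interaction term in edgeR, for 37 named miRNAs. The fit held no term for the split by title number, from which the strain difference cannot be fully told apart. Values are the log2 of the C57BL/6J ratio of BD to clean air over that of CAST/EiJ. Those above 0 were miR-19b-3p (0.9531), miR-22-5p (1.048), miR-24-3p (1.388), miR-29b-3p (1.175 at locus 1 and 1.171 at locus 2), miR-29c-5p (1.468), miR-30a-5p (0.5094), miR-32-5p (1.093), miR-33-5p (1.141), miR-34a-5p (1.363), miR-136-3p (0.9394), miR-144-3p (1.043), miR-200a-3p (1.389), miR-449a-5p (1.578), miR-451 (0.9455), miR-500-3p (1.191), miR-582-3p (0.4978), miR-582-5p (0.8858) and let-7i-3p (0.7098). Those below 0 were miR-18a-3p (-1.221), miR-27b-5p (-0.6396), miR-30c-1-3p (-0.9587), miR-30c-5p (-0.5785), miR-92a-3p (-0.9092), miR-125b-1-3p (-0.6945), miR-128-3p (-1.144), miR-142-3p (-1.142), miR-142-5p (-1.091), miR-150-5p (-1.712), miR-155-5p (-1.119), miR-342-5p (-0.8521), miR-351-5p (-1.32), miR-423-5p (-1.146), miR-497-5p (-1.122), miR-676-3p (-0.5264), miR-3096b-5p (-1.247) and let-7d-3p (-0.5778). For miR-351-5p the CAST/EiJ response had itself passed in the opposite direction (log2 fold 0.85, adjusted p = 0.0115), but not without Lung8 (0.56, adjusted p = 0.0687).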

How the results depend on the processing

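The count of 84 changed miRNAs of 338 was 86 with other size factors, 92 with DESeq2, 84 with limma-voom and 77 in libraries thinned to 1 depth. With fewer entries tested, it was 79 of 297 with the G and C offset. With all 20 libraries in the fit it was 89 of 320, of which 68 were among the 84. It was 54 with a mean of at least 50 CPM, 0 with BD Lung18 alone and 0 against clean-air Lung106 alone (fits with 1 library in an arm, which say little), and 50–138 when single libraries were left out. Processing genes numbered 7, against 3 with all 24 libraries, 4 without the filter on low counts and 2–11 when single libraries were left out. The strain difference was called for 37 named miRNAs and for 35 without Lung8.

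Directions turned in the following cases, and the cause was not tested. With the split by number as a covariate the log2 fold was -0.062 for miR-146b-5p, 0.15 for miR-34b-3p and 0.087 for miR-126-3p. With Lung18 alone it was -0.012 for miR-451, 0.15 for miR-34b-3p and 0.15 for miR-146a-5p. Against Lung106 alone it was -0.31 for miR-34c-5p and 0.23 for miR-126-3p, and summed over loci miR-34c-5p was at -0.016. With single libraries left out the log2 fold ran from -0.12 to 0.027 for miR-34b-3p, from -0.026 to 0.16 for miR-34c-5p, from -0.98 to 0.57 for miR-205-5p, from -0.11 to 0.13 for miR-203-3p and from -0.056 to 0.012 for Dicer1.

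No paired analysis was possible because the small RNA groups share no title numbers and the replicate numbers were given in accession order. Rare miRNAs are limited by the shallow libraries, in which 10 counts were worth up to 4.84 CPM.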
